A study of Mus musculus with 34 samples.

Results

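Vehicle-treated macrophages of Tet2KO mice were compared with those of WT mice in the libraries that the labels call batch 1, 3 libraries for each genotype and 6 of the 34 in the series. Bone marrow-derived macrophages, cells grown from whole marrow with the growth factor M-CSF, came from mice aged 10 to 14 weeks, spent 6 days in M-CSF at 10 ng/ml, were then replated to rest for 24 h and received vehicle for another 24 h. WT mice carried Vav-Cre, which drives recombination in blood-forming cells and their descendants, and Tet2KO mice carried Tet2fl/fl and Vav-Cre, so the recombinase was present in both groups. Batch 1 also held 2 WT and 2 Tet2KO libraries treated with LDL at 200 mg/dL, which entered the same fit and are used here for side-by-side values. The main set of 24 libraries, which shares none with batch 1, repeated the vehicle comparison with 3 libraries per genotype. Whether the 3 libraries of a genotype are separate animals is not labelled, so p-values measure the spread between these libraries, which may be technical. The sex of the mice and the meaning of batch 1 are not labelled either. In the 6 vehicle libraries the Y-linked gene Ddx3y had 1275 to 2442 counts, and Xist, made from an inactive X, had at most 1.

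Tet2 encodes a dioxygenase that oxidises 5-methylcytosine in DNA, a step towards removing methylation, and its loss in blood stem cells is one of the common lesions of clonal hematopoiesis. Macrophages of that origin are studied in atherosclerosis, where they take up lipoproteins, release cytokines and remodel the matrix of the vessel wall. CD11c, the product of Itgax, pairs with the beta 2 integrin chain on myeloid cells. CD55 limits complement activation on the cell surface, and Chil3 (also called Ym1) is a chitinase-like protein secreted by macrophages and neutrophils.

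Total counts of the 6 libraries ran from 17167691 to 27781574, with the 3 Tet2KO libraries deeper than the 3 WT libraries. Levels are given in the usual CPM unit, as counts scaled to the library total after edgeR's TMM factor adjusted that total. The factor ran from 0.956 to 1.058 in the 6 libraries. Fold changes are given as log2 of Tet2KO over WT with their standard error (SE). Macrophage markers were high in all 6 libraries. Csf1r was at 2652 to 2951 CPM in WT and 3248 to 3612 CPM in Tet2KO, and Lyz2 at 22330 to 24010 and 14640 to 18720 CPM. Of 18 macrophage identity genes 9 had positive and 9 negative fold changes, and 1 passed an adjusted p of 0.05 (edgeR), lower in Tet2KO. The genotypes did not overlap in 8 of the 18, beside 3378 of all 15481 tested genes. The T cell gene Cd3e had at most 2 counts, the fat cell gene Adipoq at most 1 and the neutrophil gene Ly6g at most 3. Other genes listed as markers of non-macrophage cells were present in every library, which does not show that such cells were there. The neutrophil genes S100a8 and Ltf were at 4.87 to 24.9 and 2.42 to 22.9 CPM. Pf4, from the megakaryocyte list, was at 220 to 375 CPM in WT and 437 to 967 CPM in Tet2KO. Itga2b of that list was at 26.2 to 33.2 CPM over the 6 libraries. The stromal genes Dcn and Postn were at 27.5 to 106 and 35.6 to 350 CPM. Tet2 (ENSMUSG00000040943, GRCm38 chromosome 3, 133463679 to 133545139) was at 24.1, 26.7 and 27.9 CPM in WT and 24.2, 16.8 and 24.3 CPM in Tet2KO, a log2 fold change of -0.27 ± 0.24 (edgeR quasi-likelihood test, adjusted p = 0.694). The count covers the whole gene, including exons that a floxed allele keeps, so it does not test the Tet2KO label. One library stood apart: Tet2KO library 3 lay at 54.4 on a first principal component that held 54.1% of the variance, and it was the highest in collagen transcripts, as described further on. Its correlation with the other 2 Tet2KO vehicle libraries was 0.964 and 0.969 over 11468 genes, against 0.992 to 0.993 between WT vehicle libraries and 0.989 with Tet2KO LDL library 2.

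Itgax and Chil3 were lower and Cd55 was higher in Tet2KO than in WT, in all 3 libraries of each. The 250 bases before the RefSeq start of each of these genes (GRCm38.p6) are shown, 5′ to 3′ on the gene's strand, because Tet2 acts on methylated CG pairs. Capitals mark every CG, counted on 1 strand since the motif reads the same on both. Itgax holds 5 CG in this window, Cd55 holds 8 and Chil3 holds 3, and 49.5%, 59.3% and 38.1% of all 27025 RefSeq promoter windows hold that number or fewer. The genes tested here are richer in CG than that background. Their matched windows have a median of 15, against 6 over all RefSeq windows, so all 3 genes lie below the tested median. Only 10.3% of the tested genes hold at most 3 CG, as Chil3 does. The study measured RNA, so the letters say nothing about methylation at these sites.
Itgax, chr7:128129300-128129549, plus strand: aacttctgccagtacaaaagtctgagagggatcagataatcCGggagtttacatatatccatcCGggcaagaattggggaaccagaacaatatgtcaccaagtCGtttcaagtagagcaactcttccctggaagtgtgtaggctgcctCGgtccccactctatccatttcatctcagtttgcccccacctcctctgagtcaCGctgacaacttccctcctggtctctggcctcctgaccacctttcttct
Cd55, chr1:130462745-130462994, minus strand: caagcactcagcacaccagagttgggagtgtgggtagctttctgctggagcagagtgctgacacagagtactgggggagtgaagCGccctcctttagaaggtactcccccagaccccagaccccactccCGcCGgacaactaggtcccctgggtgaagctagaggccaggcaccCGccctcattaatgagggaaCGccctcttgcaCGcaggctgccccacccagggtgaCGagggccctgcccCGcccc
Chil3, chr3:106167565-106167814, minus strand: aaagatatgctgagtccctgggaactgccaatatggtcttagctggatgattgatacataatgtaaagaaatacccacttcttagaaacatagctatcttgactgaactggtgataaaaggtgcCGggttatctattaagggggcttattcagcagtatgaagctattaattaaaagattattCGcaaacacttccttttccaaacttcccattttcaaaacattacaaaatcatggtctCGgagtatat

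Itgax (ENSMUSG00000030789, chromosome 7, 128129547 to 128150657) was at 60.7, 116 and 101.5 CPM in the 3 WT libraries and at 8.14, 5.38 and 3.92 CPM in the 3 Tet2KO libraries. Every Tet2KO library lay below every WT library, and the log2 fold change was -4.00 ± 0.40 (edgeR quasi-likelihood test, adjusted p = 0.00169). Cd55 (ENSMUSG00000026399, chromosome 1, 130439027 to 130462744) was at 2.44, 3.20 and 2.29 CPM in WT and 13.7, 18.6 and 15.1 CPM in Tet2KO. The groups did not overlap, and the log2 fold change was 2.58 ± 0.19 (edgeR, adjusted p = 6.46e-04). Chil3 (ENSMUSG00000040809, chromosome 3, 106147554 to 106167564) was at 27.2, 25.5 and 29.2 CPM in WT and 8.99, 7.07 and 2.59 CPM in Tet2KO, again without overlap, with Tet2KO library 3 the lowest. Its log2 fold change was -2.14 ± 0.43 (edgeR, adjusted p = 0.0433). Itgax and Cd55 passed the threshold whichever of the 6 libraries was left out. Chil3 lost its call without WT library 1 (-2.14, adjusted p = 0.141), 2 (-2.18, 0.138) or 3 (-2.09, 0.161), or without Tet2KO library 2 (-2.24, 0.113). It also lost it with only the 6 vehicle libraries in the fit (-2.14, 0.0501) and without either WT LDL library (0.0606 and 0.0622). Fewer cells of a type and less RNA per cell cannot be told apart in such bulk samples.

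Over all genes, 292 of 15481 tested (1.89%) passed an adjusted p of 0.05, called here, of which 113 (0.73%) were higher and 179 (1.16%) lower in Tet2KO. The median log2 fold change of all tested genes was 0.004, and the median size over the called genes was 0.997. In each of the 292 the 3 libraries of one genotype lay outside the range of the other, as they did in 3378 of all 15481 tested genes. Without Tet2KO library 3 and the LDL library that resembled it, 208 genes were called, 80 higher and 128 lower. Only 160 of the 292 were among them in the same direction, so the 208 are not a subset of the 292. Of 63 called genes named here, 21 kept their call whichever vehicle library was left out. The other 42 lost it without at least 1 WT library. With only the 6 vehicle libraries in the fit 11 of the 63 lost their call: Chil3, Cd36, Car2, Ctla2a, Elane, Fcgr2b, Flrt3, Itga9, Pltp, Ptprf and Slc39a8.

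**Figure D1:**
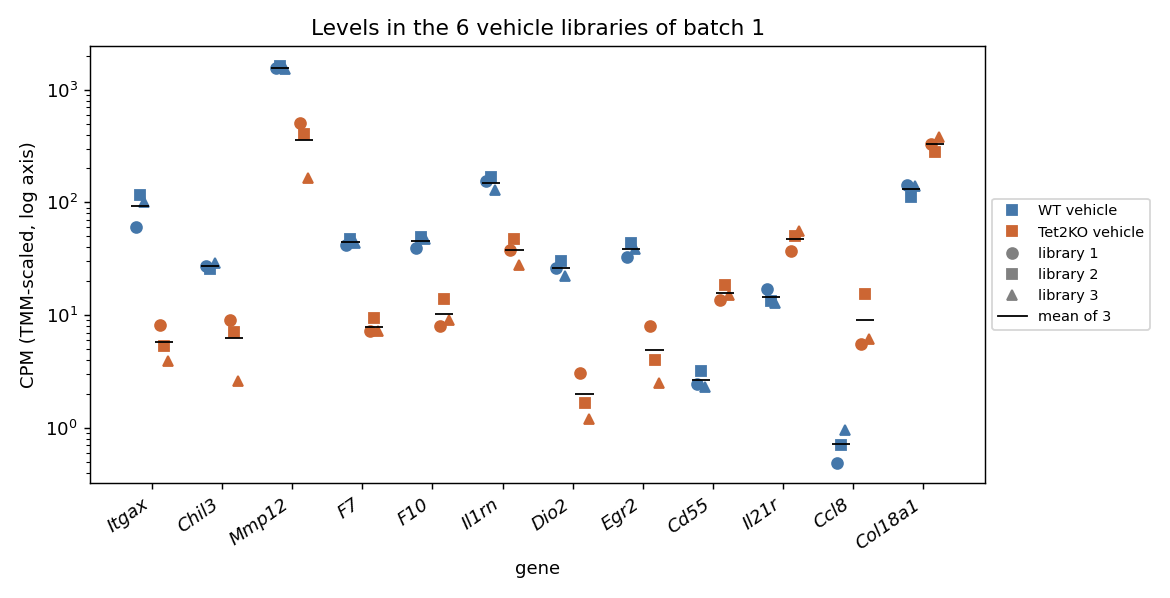
Levels of 12 named genes in the 6 vehicle libraries of batch 1, as CPM on a log axis; symbols mark the library number, colours the genotype and black lines the mean of 3. Itgax, Chil3, Mmp12, F7, F10, Il1rn, Dio2 and Egr2 lie lower in every Tet2KO library, and Cd55, Il21r, Ccl8 and Col18a1 higher.

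Among genes of coagulation and plasminogen activation, 4 of 13 tested fell, 0 rose and 9 did not pass, with a median of -0.20. F7, coagulation factor VII, was at 42.1, 47.4 and 44.1 CPM in WT and 7.16, 9.37 and 7.23 CPM in Tet2KO. That is a log2 fold change of -2.49 ± 0.15 (edgeR quasi-likelihood test, adjusted p = 3.46e-04), with a narrow spread in both groups. F10, its neighbour on chromosome 8 and the factor that VII activates, was at 39.6, 49.6 and 47.2 CPM against 7.97, 14.0 and 9.03 CPM (-2.14 ± 0.23, adjusted p = 0.00222). Procr, the endothelial protein C receptor, fell by 1.39 ± 0.11 (edgeR, adjusted p = 7.22e-04), from 64.4 to 69.9 CPM in WT to 24.3 to 28.1 CPM in Tet2KO. Plau, the urokinase plasminogen activator, was at 92.4 to 116 CPM in WT and 33.3 to 44.2 CPM in Tet2KO (-1.43 ± 0.22, adjusted p = 0.0138). The 4 genes were also called without both libraries high in collagen. Plau alone lost its call when 1 library was left out (WT 1, -1.50 and adjusted p = 0.0505; WT 2, -1.32 and 0.073; WT 3, -1.48 and 0.0583; Tet2KO 2, -1.35 and 0.0522). The other 9 genes of the list ran in both directions.

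Itgb2, Mmp12, Siglecf, Tm4sf19 and Atp6v0d2 also fell. Itgb2, the partner chain of CD11c, was at 981, 1076 and 1027 CPM in WT and 645, 611 and 508 CPM in Tet2KO. The groups did not overlap (-0.81 ± 0.11, edgeR adjusted p = 0.00841). In the integrin list 2 of 18 fell and 1 rose, Itga9 (1.21 ± 0.24, adjusted p = 0.0376), with a median of 0.13. Mmp12, a macrophage elastase and the only called gene of 15 matrix metalloproteinases and inhibitors (list median 0.17), was at 1548, 1630 and 1542 CPM in WT and 510, 403 and 165 CPM in Tet2KO. Its log2 fold change was -2.13 ± 0.38 (edgeR, adjusted p = 0.0249), with Tet2KO library 3 the lowest. Siglecf, a sialic acid-binding receptor known from eosinophils and alveolar macrophages, was at 7.26 to 13.4 CPM in WT and 0.613 to 2.21 CPM in Tet2KO (-2.97 ± 0.51, adjusted p = 0.0221). Tm4sf19, a 4-span membrane protein, fell by 2.48 ± 0.39 (adjusted p = 0.0168). Atp6v0d2, a proton pump subunit and the only called gene of 22 lysosomal genes, went from 471 to 504 CPM in WT to 194 to 236 CPM in Tet2KO (-1.15 ± 0.10, adjusted p = 9.73e-04). Of the 22 lysosomal genes 21 had negative values, with a median of -0.20. Leaving out 1 library ended the calls of Itgb2 (WT 2, adjusted p = 0.0562), Mmp12 and Siglecf (WT 1, 2 or 3 or Tet2KO 2, adjusted p = 0.0756 to 0.0986 and 0.0527 to 0.0986), Tm4sf19 (any WT library, 0.0527 to 0.0804) and Itga9 (any but Tet2KO 1, 0.0664 to 0.181).

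Il1rn, the interleukin 1 receptor antagonist, was at 154.5, 167 and 128 CPM in WT and 37.6, 47.5 and 28.1 CPM in Tet2KO. The log2 fold change was -1.99 ± 0.21 (edgeR quasi-likelihood test, adjusted p = 0.00222), and it was called whichever library was left out. Tnfaip3, a feedback inhibitor of NF-kB, fell by 0.80 ± 0.14 (adjusted p = 0.027). These 2 were the only called genes among 20 inflammatory cytokines and NF-kB targets, and both are known as brakes on that response. The list's median was 0.37 and 14 of its 20 values were positive. None of 11 inflammasome genes was called. Tlr6, which pairs with Tlr2, was the only called gene of 18 Toll-like receptor genes (-1.11 ± 0.11, adjusted p = 0.00199). Tnfaip3 lost its call without each of the 6 libraries but Tet2KO library 3 (adjusted p = 0.0706 to 0.123).

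Dio2, Egr2 and Eef1a2 fell as well. Dio2, which converts thyroxine to its active form, was at 26.4, 30.5 and 22.4 CPM in WT and 3.09, 1.65 and 1.19 CPM in Tet2KO (-3.74 ± 0.31, edgeR adjusted p = 8.39e-04). Egr2, a zinc finger factor induced in macrophages, was at 33.1, 43.9 and 38.7 CPM in WT and 8.04, 4.03 and 2.52 CPM in Tet2KO (-2.99 ± 0.42, adjusted p = 0.00993). All Tet2KO libraries lay below all WT libraries in both. Egr2 and Cebpa were the called genes of 24 myeloid transcription factors (list median -0.08), and Cebpa, a driver of granulocyte and monocyte fate, fell by 0.51 ± 0.07 (adjusted p = 0.0125). Eef1a2, an elongation factor isoform, went from 25.0 to 28.8 CPM in WT to 3.65 to 6.11 CPM in Tet2KO (-2.49 ± 0.20, adjusted p = 7.22e-04). Vsig8 (-3.37 ± 0.34), Ankdd1a (-3.68 ± 0.41) and Galnt9, a glycosyltransferase (-2.72 ± 0.44), were below 5 CPM in every library. Egr2 lost its call without WT library 2 (adjusted p = 0.052), Cebpa without any 1 WT library (0.0522 to 0.0741) and Galnt9 without any 1 WT library or Tet2KO library 2 (0.067 to 0.0844).

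In the cholesterol biosynthesis list 4 of 24 genes fell, 0 rose and 20 did not pass, and 22 of the 24 values were negative with a median of -0.33. Dhcr7, the last reductase of the pathway, was at 29.5, 34.9 and 39.4 CPM in WT and 19.9, 18.7 and 16.3 CPM in Tet2KO (-0.92 ± 0.13, edgeR adjusted p = 0.0112). Cyp51 and Msmo1, which remove methyl groups from sterols, fell by 0.69 ± 0.11 (adjusted p = 0.0176) and 0.49 ± 0.08 (adjusted p = 0.0186). Hmgcs1, which makes the substrate of HMG-CoA reductase, fell by 0.48 ± 0.09 (adjusted p = 0.0366). These falls were all below 2-fold. Leaving out 1 library ended the calls of Dhcr7 (WT 2 or 3, adjusted p = 0.065 and 0.0551), Cyp51 (any but Tet2KO 1, 0.051 to 0.0942), Msmo1 (any but Tet2KO 1, 0.0602 to 0.101) and Hmgcs1 (any of the 6, 0.0587 to 0.178). Without both libraries high in collagen, Dhcr7 was the only 1 of these 4 that kept its call (adjusted p = 0.037). With no scaling between libraries the values of Msmo1 and Hmgcs1 were 0.06 and 0.07, where the median of all genes moved to 0.545, so both stayed below that median.

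Lipid uptake and oxidative stress genes held further falls. Cd36, a scavenger receptor for oxidised lipoproteins, was at 1429, 1334 and 1144 CPM in WT and 671, 628 and 373 CPM in Tet2KO (-1.22 ± 0.24, edgeR adjusted p = 0.0364), the only called gene of 20 in its list. Prdx1, a peroxidase, fell by 0.87 ± 0.15 (adjusted p = 0.0236) and Gclm, a subunit of the enzyme that starts glutathione synthesis, by 0.70 ± 0.13 (adjusted p = 0.028), 2 of 15 NRF2 and oxidative stress genes. Among 14 LXR targets, genes of a sterol-sensing receptor, 2 rose and 0 fell, with a median of 0.39. They were Pltp, a phospholipid carrier (1.09 ± 0.20, adjusted p = 0.028), and Arl4c, a small GTPase (0.93 ± 0.15, adjusted p = 0.0172). Abca1, a cholesterol exporter, was at 574 CPM in Tet2KO library 3 and 180 to 257 CPM in the other 5 libraries (adjusted p = 0.511). Neither LXR target was called without both libraries high in collagen. With 1 library left out, Cd36 lost its call without any WT library or Tet2KO 2 (adjusted p = 0.0816 to 0.143), Prdx1 without any WT library or Tet2KO 1 (0.0551 to 0.103), Gclm without WT 1 or 3 or Tet2KO 1 or 2 (0.0831 to 0.121), Pltp without any WT library (0.119 to 0.143) and Arl4c without WT 2 or 3 or Tet2KO 2 (0.0539 to 0.0942).

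The rises included chemokines and immune receptors. Ccl8, a ligand of several CC receptors, was at 0.488, 0.700 and 0.952 CPM in WT and 5.58, 15.4 and 6.13 CPM in Tet2KO (3.63 ± 0.53, edgeR adjusted p = 0.0122). Its neighbour and paralog Ccl12 was at 0.250 to 0.428 CPM in WT and 1.84 to 3.11 CPM in Tet2KO (2.69 ± 0.39, adjusted p = 0.0124). Both groups of values were apart, at low levels. They were the 2 called genes of 20 chemokines, of which 18 had positive values with a median of 0.79. Il21r, the interleukin 21 receptor, was at 16.95, 13.4 and 12.7 CPM in WT and 37.4, 50.3 and 55.3 CPM in Tet2KO (1.73 ± 0.16, adjusted p = 0.00137). Il21r was called whichever library was left out, while Ccl8 and Ccl12 lost their calls without any 1 WT library (adjusted p = 0.0583 to 0.0737 for each). In the type I interferon list 0 of 22 genes were called by edgeR and 1 had an unadjusted p under 0.05. Of its 22 values 21 were positive, with a median of 0.51. The summed level of that list ran from 633 to 1315 CPM in WT and from 574 to 2156 CPM in Tet2KO, lowest in library 3 of each genotype.

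Further rises were spread over signalling and membrane genes. Osbp2, an oxysterol-binding protein, went from 1.95 to 2.44 CPM in WT to 6.81 to 8.90 CPM in Tet2KO (1.87 ± 0.17, edgeR adjusted p = 0.00114). Gpr171, a receptor related to purinergic receptors, went from 2.00 to 3.29 CPM to 6.95 to 12.3 CPM (1.87 ± 0.28, adjusted p = 0.0128). Ptprf, a receptor tyrosine phosphatase, was at 5.06, 4.35 and 7.28 CPM in WT and 16.7, 17.4 and 44.7 CPM in Tet2KO, with library 3 apart from the other 2 (2.23 ± 0.41, adjusted p = 0.0303). Flrt3, an adhesion protein, rose by 1.81 ± 0.33 (adjusted p = 0.0277) and was also highest in Tet2KO library 3. Ctla2a and Ctla2b, adjacent cysteine protease inhibitors of similar sequence, rose by 1.84 ± 0.35 (adjusted p = 0.0362) and 1.66 ± 0.21 (adjusted p = 0.00517), and reads may be split between them. Osbp2 and Ctla2b kept their calls whichever library was left out. Gpr171 (adjusted p = 0.0522 to 0.0666) and Ptprf (0.0937 to 0.151) lost theirs without any 1 WT library, Flrt3 without any WT library or Tet2KO 2 (0.0634 to 0.145) and Ctla2a without any library but Tet2KO 1 (0.0833 to 0.171).

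Among 13 tested genes of resident macrophages and clearance of dead cells, 3 rose and 1 fell, with a median of 0.20. Stab1, a scavenger receptor, was at 683, 659 and 800 CPM in WT and 1257, 1182 and 1698 CPM in Tet2KO (0.95 ± 0.16, edgeR adjusted p = 0.0236). Axl, a receptor for ligands bridging to dying cells, went from 109 to 115 CPM to 162 to 215.5 CPM (0.75 ± 0.14, adjusted p = 0.0327). Mrc1, the mannose receptor, went from 221 to 235 CPM to 314 to 380 CPM (0.63 ± 0.12, adjusted p = 0.0301). Mfge8, which links dying cells to integrins, was at 559 to 619 CPM in WT and 328 to 396 CPM in Tet2KO (-0.71 ± 0.10, adjusted p = 0.0116). Mertk, the relative of Axl, was at 193.5 to 197 CPM in WT and 141 to 156 CPM in Tet2KO and did not pass (-0.41 ± 0.15, adjusted p = 0.269). The number that rose fell to 0 in the lowest case when 1 library was left out. Stab1 lost its call without any 1 WT library (adjusted p = 0.0749 to 0.127), Axl (0.0713 to 0.153) and Mrc1 (0.0713 to 0.141) without any library but Tet2KO 2, and Mfge8 without WT 2 or 3 (0.0684 and 0.0666).

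In the complement list 2 of 16 genes rose and 0 fell. Besides Cd55 this was Cd59a, which blocks the last step of complement attack on cells, at 15.9, 11.3 and 15.1 CPM in WT and 28.8, 31.0 and 30.5 CPM in Tet2KO (1.09 ± 0.22, edgeR adjusted p = 0.0407). Both encode regulators anchored on the cell surface. Cd59a lost its call when any 1 of the 6 libraries was left out (adjusted p = 0.078 to 0.181), whereas Cd55 kept it. Among Fc, lectin and scavenger receptors 1 of 22 rose (Stab1, described above) and 2 fell. Fcgr2b, the inhibitory Fc receptor, was one of the 2 (-0.73 ± 0.15, adjusted p = 0.0472) and lost its call without any 1 library (adjusted p = 0.0578 to 0.178). Cd36, described with lipid uptake, was the other.

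Counts per list are small. Against the 0.73% of all genes called higher and the 1.16% called lower, the lists held between 0 and 3 genes called higher and between 0 and 4 called lower.

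**Figure D2:**
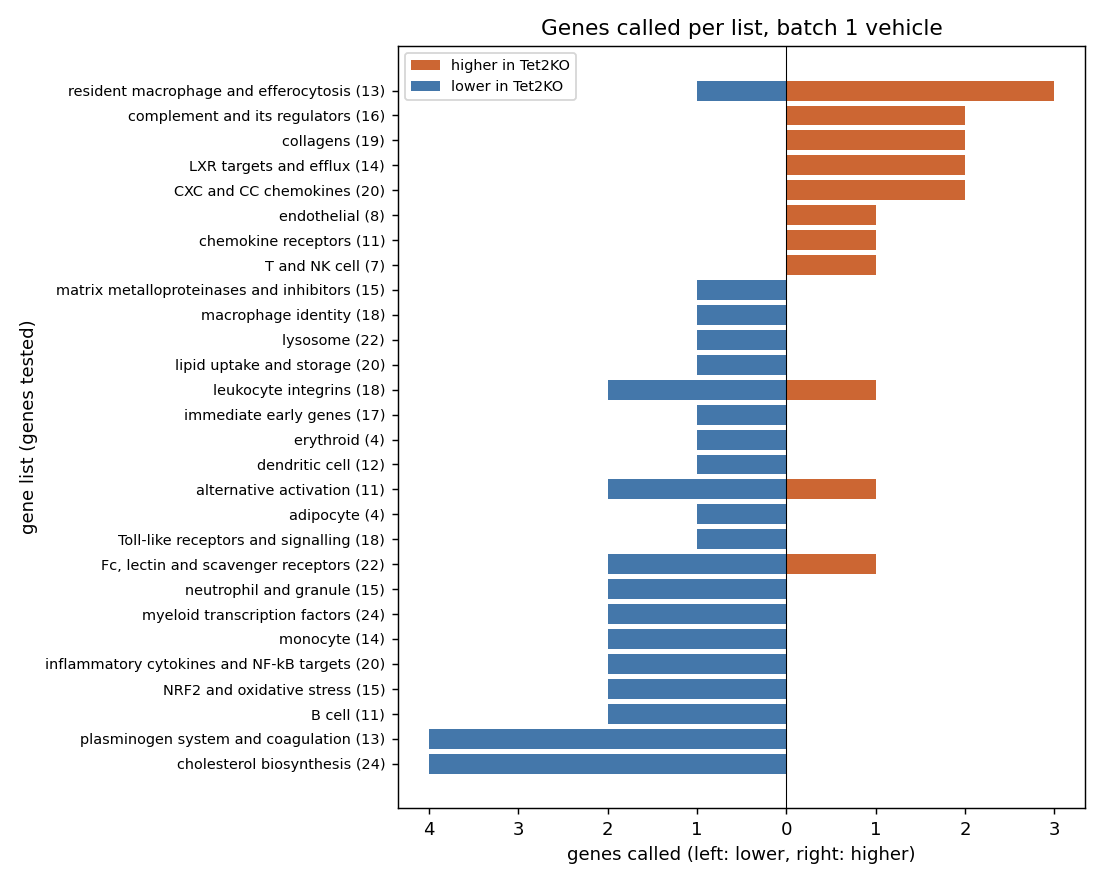
Number of genes called higher (right) and lower (left) in Tet2KO in each gene list with at least 1 called gene; the number tested is in brackets. Coagulation and cholesterol genes each show 4 falls and no rise, and resident macrophage genes show 3 rises and 1 fall.

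Collagen transcripts varied widely between libraries of the same genotype. Col1a1, a chain of type I collagen made by fibroblast-like cells, was at 168, 141.5 and 274 CPM in WT and 221, 279.5 and 1537 CPM in Tet2KO. Tet2KO library 3 lay far above the other 5 libraries, Tet2KO library 1 lay below WT library 3, and the fold change did not pass (1.80 ± 0.79, edgeR adjusted p = 0.355). Without Tet2KO library 3 it was 0.37. Col1a2 (1.46 ± 0.69, adjusted p = 0.388) and Col3a1 (1.60 ± 0.60, adjusted p = 0.281) were also highest in Tet2KO library 3, at 1268 and 363.5 CPM, and were 0.28 and 0.57 without that library. The groups overlapped in Col1a2 but not in Col3a1, where Tet2KO library 1 (79.6 CPM) lay just above WT library 3 (75.9 CPM). Among the LDL libraries only Tet2KO library 2 was as high, with Col1a1 at 184.5 and 180 CPM in WT and 294 and 1508 CPM in Tet2KO. Whether that library shares a source with Tet2KO vehicle library 3 is not labelled. Over the 19 collagens tested the median was 1.31, 18 values were positive and 2 genes were called. Their summed level was 934, 800 and 1298 CPM in WT and 1378, 1450 and 5676 CPM in Tet2KO.

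The 2 called collagens differed from type I collagen in that Tet2KO libraries 1 and 2 were also high. Col18a1, a basement membrane collagen, was at 144, 112 and 140 CPM in WT and 327, 278 and 378 CPM in Tet2KO (1.31 ± 0.14, edgeR adjusted p = 0.00222), and was called whichever library was left out. Col4a2, a chain of type IV collagen, was at 20.7, 21.3 and 26.2 CPM in WT and 50.0, 41.9 and 77.3 CPM in Tet2KO (1.31 ± 0.22, adjusted p = 0.0217), and lost its call without any 1 WT library (adjusted p = 0.0741 to 0.116). In 27 stromal genes 0 were called by edgeR and 10 had an unadjusted p under 0.05, with a median of 1.06 and 24 positive values. The summed level of that list went the other way, from 11490 to 12280 CPM in WT to 7844 to 9394 CPM in Tet2KO, because Spp1, also a macrophage gene, made up most of it (10560 to 10900 CPM against 4370 to 7295 CPM). The genes most like Col1a1 over the 6 libraries, among 11450 with a mean of at least 2 CPM, were Col1a2 (Pearson's r 0.9988), Fn1 (0.9986), Copz2 (0.9985), Slc20a2 (0.9975) and Col5a1 (0.9971). Fn1, fibronectin, was at 1155 CPM in Tet2KO library 3 and 174 to 283 CPM in the other 5. All of these r values include that 1 high library. Of 264 called genes at that level 0 had an r above 0.9 or below -0.9 with Col1a1. Each called gene separated the genotypes without overlap and Col1a1 did not, so this count cannot show whether calls follow the collagen signal.

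**Figure D3:**
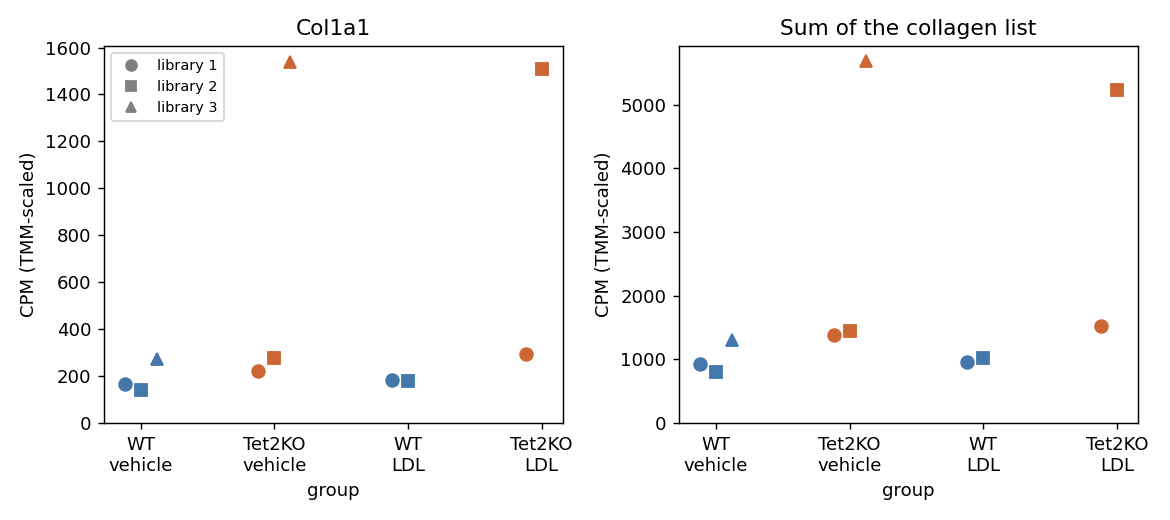
Col1a1 (left) and the sum of the collagen list (right) in the 10 libraries of batch 1, as CPM on linear axes from 0; symbols mark the library number within each group. Tet2KO vehicle library 3 (1537 CPM of Col1a1) and Tet2KO LDL library 2 (1508 CPM) lie far above the other 8 libraries.

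Genes of other blood cells were also measured. Of 15 neutrophil and granule genes 14 had negative values with a median of -1.21, and 2 were called: Mpo, a granule peroxidase, at 3.19 to 3.41 CPM in WT and 1.33 to 1.57 CPM in Tet2KO (-1.21 ± 0.23, edgeR adjusted p = 0.0364), and Elane, neutrophil elastase, at 0.666 to 0.8995 CPM against 0.115 to 0.281 CPM (-1.97 ± 0.35, adjusted p = 0.026). The summed level of the list ran from 212 to 299 CPM in WT and 132 to 173 CPM in Tet2KO, with Ly6g at 0 to 3 counts. Neither was called without both libraries high in collagen (adjusted p = 0.0763 for Mpo and 0.0875 for Elane). Leaving out 1 library ended the call of Mpo in all 6 cases (adjusted p = 0.0758 to 0.142) and of Elane in all but that of Tet2KO library 1 (0.0758 to 0.119). Chil3, also made by neutrophils, fell beside them, and the part of such cells in its fall was not tested.

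Among B cell genes Cd22 (-1.13 ± 0.14, edgeR adjusted p = 0.00507) and Blnk (-0.70 ± 0.12, adjusted p = 0.0251) fell, a surface lectin and a signalling adaptor measured at no less than 28.4 and 138 CPM in the WT libraries. Cd79a, a signalling chain of the B cell receptor, was at 0.400 to 0.976 CPM in WT and 1.62, 1.73 and 0.375 CPM in Tet2KO and did not pass (adjusted p = 0.579). Igha, the heavy chain of IgA and outside that list, was at 8.17, 7.10 and 8.90 CPM in WT and had 11, 1 and 0 counts in the 3 Tet2KO libraries (-5.77 ± 0.95, adjusted p = 0.0186). Ighm, the heavy chain of IgM, was at 7.01 to 9.19 CPM in WT and 22.2, 31.1 and 3.68 CPM in Tet2KO and did not pass (adjusted p = 0.504). Cd4 was the only called gene of 7 T and NK cell genes (1.23 ± 0.23, adjusted p = 0.0334), at 5.85 to 8.60 CPM in WT and 13.3 to 20.5 CPM in Tet2KO, while Cd3e had 0 to 2 counts. Eng, an endothelial and macrophage receptor, rose (0.99 ± 0.18, adjusted p = 0.0261) and Car2, a carbonic anhydrase of red cells and osteoclasts, fell (-1.32 ± 0.25, adjusted p = 0.0356), each alone in its list. With 1 library left out, calls were lost for Blnk (any but Tet2KO 1, adjusted p = 0.0532 to 0.124), Igha (any WT or Tet2KO 2, 0.067 to 0.082), Cd4 (any but Tet2KO 1, 0.0634 to 0.167), Eng (any but Tet2KO 3, 0.0694 to 0.134) and Car2 (any but Tet2KO 2, 0.0703 to 0.155).

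Several called genes lie beside Tet2 or copy a gene that does. Within 5 Mb of Tet2, 3 of 51 tested genes (5.88%) were called, beside 1.89% of all genes. Ccdc109b, a regulator of the mitochondrial calcium channel, was at 35.6, 39.4 and 34.8 CPM in WT and 10.7, 10.7 and 9.30 CPM in Tet2KO (-1.84 ± 0.11, edgeR adjusted p = 3.46e-04). Pla2g12a, a secreted phospholipase, fell by 1.10 ± 0.20 (adjusted p = 0.028) and Slc39a8, a zinc importer, rose by 0.61 ± 0.12 (adjusted p = 0.0369). Ccdc109b kept its call whichever library was left out, Pla2g12a lost it without any 1 library (adjusted p = 0.0541 to 0.123) and Slc39a8 without any but Tet2KO 2 (0.0921 to 0.141). Rpl34, a ribosomal protein gene in the same interval, was at 209, 212 and 207 CPM in WT and 148.5, 167 and 133 CPM in Tet2KO and did not pass (-0.49 ± 0.13, adjusted p = 0.113).

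Rpl34-ps2 on chromosome 13 and Rpl34-ps1 on chromosome 6, processed copies of Rpl34, were among the largest rises. Rpl34-ps2 was at 0.488, 0.8995 and 0.476 CPM in WT and 41.2, 18.6 and 30.0 CPM in Tet2KO (5.57 ± 0.41, edgeR adjusted p = 6.46e-04), and Rpl34-ps1 went from 0.400 to 0.714 CPM to 5.96 to 7.06 CPM (3.53 ± 0.30, adjusted p = 8.53e-04). Tdg-ps on chromosome 15, a copy of the DNA glycosylase gene Tdg, fell from 1.28 to 2.95 CPM to 0.0682 to 0.105 CPM (-4.54 ± 0.56, adjusted p = 0.00507), while Tdg itself did not pass (0.79 ± 0.23, adjusted p = 0.154). Reads from a gene and its near-identical copies may be assigned to either, so the values of these 3 copies are uncertain as to source.

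The same contrast in the LDL libraries of batch 1, 2 per genotype, called 83 of 15481 genes (0.536%), 38 higher and 45 lower. Itgax was at 23.2 and 48.1 CPM in WT and 4.91 and 3.29 CPM in Tet2KO (-3.13 ± 0.48, edgeR adjusted p = 0.0284), and Cd55 at 1.93 and 2.32 CPM against 23.2 and 18.1 CPM (3.26 ± 0.24, adjusted p = 0.00287). Chil3 was at 19.7 and 26.9 CPM against 7.33 and 2.96 CPM and did not pass (-2.18 ± 0.53, adjusted p = 0.145). F7 fell by 1.92 ± 0.18 (adjusted p = 0.00307), while Procr, at 71.0 and 54.3 CPM against 54.0 and 52.2 CPM, did not pass (-0.23 ± 0.13, adjusted p = 0.514). No difference between the vehicle and LDL contrasts was called by edgeR (0 of 15481 genes, 0%), 236 genes had an unadjusted p under 0.05, and DESeq2 called 4. The difference for Procr was 1.15 ± 0.17 with an adjusted p of 0.76.

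The main set called 1064 of 19444 genes (5.47%) in its vehicle comparison, and 919 of 15120 (6.08%) among genes tested in both sets. The tables were normalized separately, so the difference between sets was not tested and levels are set side by side only. Of the 288 called genes of batch 1 that the main set tested, 203 (70.5%) had the same sign there, beside 53.1% of all 15120 genes, and 74 were called in the same direction. Those 74 are 25.7% of the batch 1 list and 8.05% of the main-set list, and 10 genes were called in opposite directions. Falls kept their sign in 134 of 176 and rises in 69 of 112. Across the 15120 genes, which are not independent replicates, Pearson's r of the 2 fold changes was 0.232, and 0.502 over the 288.

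**Figure D4:**
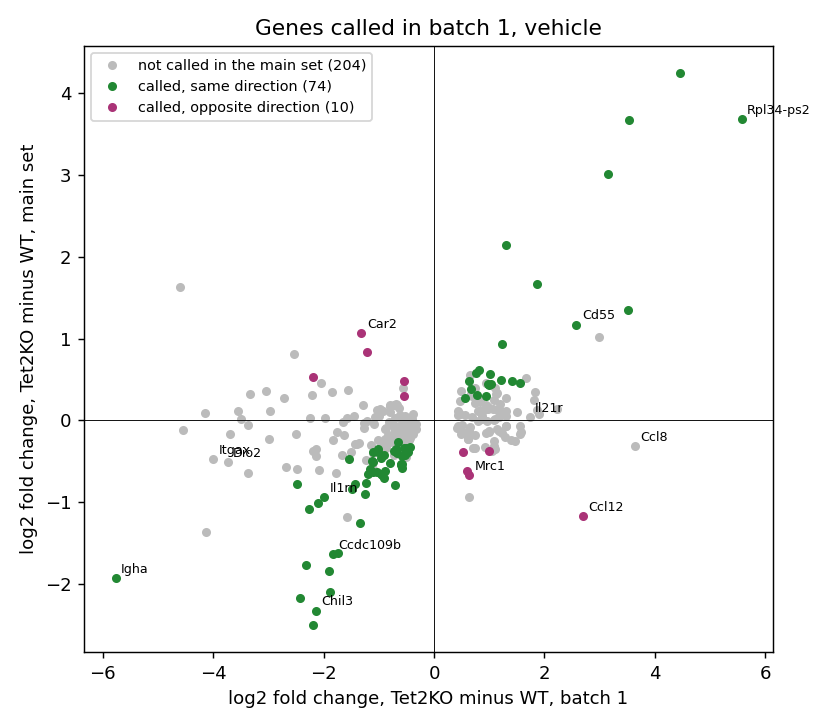
Log2 fold change of Tet2KO over WT in batch 1 (horizontal) against the main set (vertical) for the 288 genes called in batch 1 and tested in both; green points were called in the same direction in the main set (74), purple in the opposite direction (10), grey not called there (204). Chil3, Cd55, Il1rn and Ccdc109b lie with both values on the same side, while Itgax lies near 0 on the vertical axis and Ccl12 on opposite sides.

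Chil3, Cd55 and Il1rn were called in both sets. Chil3 was at 50.5, 49.9 and 45.4 CPM in WT and 10.6, 10.0 and 8.42 CPM in Tet2KO of the main set (-2.33 ± 0.14, edgeR adjusted p = 3.08e-10), Cd55 rose there by 1.17 ± 0.16 (adjusted p = 7.89e-05) and Il1rn fell by 0.94 ± 0.09 (adjusted p = 5.71e-07). F7, Plau, Cd36, Cyp51, Msmo1, Hmgcs1, Blnk, Cd22, Tlr6, Igha and Ccdc109b also fell in both, and Gpr171, Itga9, Arl4c, Cd4, Eng and both Rpl34 copies also rose in both. Itgax was different in level: the main set held 4.10 to 5.40 CPM in WT and 3.05 to 3.56 CPM in Tet2KO (-0.48 ± 0.17, adjusted p = 0.112), near the level of the Tet2KO libraries of batch 1. Siglecf, Dio2, Egr2, Eef1a2 and Tm4sf19, which fell in batch 1, were likewise at most 4.33 CPM in every main-set vehicle library, WT included, and none was called there. Il21r was at 86.2 to 95.2 CPM in WT and 84.0 to 96.9 CPM in Tet2KO of the main set (0.04 ± 0.07, adjusted p = 0.851). Ccl8 was at 46.2 to 73.0 CPM in WT and 36.4 to 59.2 CPM in Tet2KO there (-0.32 ± 0.30, edgeR adjusted p = 0.646). Further named genes were not called there, among them F10 (-0.43), Procr (-0.29), Osbp2 (0.13), Ptprf (0.14), Tnfaip3 (0.18), Col18a1 (-0.07) and Mfge8 (0.03). Their edgeR adjusted p ran from 0.292 to 0.938, and Tnfaip3, Col18a1 and Mfge8 changed sign. Col1a1 was at 3884 to 4443 CPM in WT and 4119 to 5216 CPM in Tet2KO there, above every library of batch 1, and did not pass (0.12 ± 0.14, adjusted p = 0.715).

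Promoter windows were matched for 10524 of the 15481 tested genes (68%). The median number of CG in the 250 bases was 15 over these, 9 over the 83 matched genes that rose and 12 over the 132 that fell. At most 3 CG were held by 10.3% of the tested genes, 20.5% of those that rose and 18.9% of those that fell. These are counts of letters in 1 window per gene, with no test, and genes without a match were not examined.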

How the data were processed

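The members, gene lists and alternatives were chosen with earlier results of these data known. The deposited table of batch 1 holds counts, 1 whole number for each of 25498 genes and 10 libraries, and the submitters' processing notes name the mm10 genome. The aligner, counter and strand setting were not given in these sources. The labels name both ribosomal RNA depletion and poly-A selection. The file name calls the values normalized, but they are whole numbers whose totals differ between libraries, and they were read as counts.

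Genes reaching 10 counts in 2 or more libraries (3 in the main set) were tested with edgeR's quasi-likelihood test (R 4.3.3, edgeR 4.0.16, TMM scaling, all 10 libraries, 1 mean per group), two-sided, with Benjamini-Hochberg adjustment and a threshold of 0.05. Tests were checked on simulated data: 74.6% of genes changed by 2-fold were recovered, with 6 false calls in the run. The changed genes had a mean of at least 2 CPM. The noise was independent between genes and libraries, so no simulated library stood apart as Tet2KO library 3 did. Alternatives used DESeq2 1.42.0 and limma 3.58.1. Named genes were Tet2, the 3 marker genes, 3 collagens, the 12 largest rises and 12 largest falls with a mean of at least 2 CPM in the higher group and a symbol of their own, up to 4 called members of each list with at least 2, and the 5 genes most like Col1a1. The genes that are alone in their list, those beside Tet2, Ctsg and members named without a call were chosen after their values were seen. There were 45 lists, and coordinates are from the GENCODE annotation of GRCm38. Promoter sequences are from RefSeq.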

Additional observations from a re-analysis of the deposited data

Results flagged for a closer look

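Among the genes named here, a group ran in opposite directions in the 2 sets, with no overlap between the 3 WT and 3 Tet2KO vehicle libraries in either. Most named genes were chosen for being called in batch 1. Other genes were not searched, so the share of all genes with this pattern is not given. Groups also did not overlap in 3378 of all 15481 genes tested in batch 1. The difference between the sets was not tested. Ccl12 had a log2 fold change of 2.69 in batch 1 and -1.17 in the main set. Mrc1 had 0.63 and -0.67, and both genes were called in both sets. Itgb2 had -0.81 in batch 1 and 0.10 in the main set, where it did not pass (edgeR adjusted p = 0.51). Mpo had -1.21 and 0.83, called in both. Ctsg, a granule protease, had -3.01 and 0.95 at under 1 CPM in every library, and did not pass in batch 1 (adjusted p = 0.117). Galnt9 had -2.72 and 0.28 and did not pass in the main set (adjusted p = 0.556). Car2 had -1.32 in batch 1 and 1.07 in the main set, called in both. Slc39a8 had 0.61 and -0.23 and did not pass in the main set (adjusted p = 0.439).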

How the results depend on the processing

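All 292 calls kept their sign under RLE factors, DESeq2, no filter, only the 6 vehicle libraries and the replicate block. Where a setting changed a count of calls, the cause was not tested. DESeq2 called 693 genes (315 higher, 378 lower), shared 161 with the main set, and called 406 under LDL and 4 for the interaction. With no filter 136 were called under LDL. Without scaling, the median of all genes moved to 0.545, 373 genes were higher and 40 lower (90.3% of calls higher against 38.7%), and the main set called 240. Tet2 then had 0.26, Hmgcs1 0.074, Msmo1 0.063, Cebpa 0.041 and Rpl34 0.060, all opposite in sign to the main values and below that median.

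The replicate block on the title numbers called 160 genes (51 higher, 109 lower) and 31 under LDL, and 20 of the 63 named calls were lost, Chil3 among them (-2.27, adjusted p = 0.0656). Deviations of same-numbered WT and Tet2KO vehicle libraries correlated at -0.231, 0.222 and 0.509, so these numbers were not taken to pair the genotypes. Only library 3 of each genotype correlated best with its own number. Pairing of vehicle with LDL libraries was not tested, and the fit treated all 10 libraries as independent. Tet2KO vehicle libraries correlated at 0.964 to 0.987 with each other. Vehicle library 2 was at 0.991 with Tet2KO LDL library 1, and vehicle library 3 at 0.989 with LDL library 2. WT vehicle and LDL libraries correlated at 0.977 to 0.99, against 0.992 to 0.993 between WT vehicle libraries.

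Leaving out 1 library gave 70 to 323 calls (18 to 123 higher, 52 to 200 lower), with 70 without WT library 2, 83 without WT 3, 95 without WT 1, 144 without Tet2KO 2 and 187 without Tet2KO 3. From 25 to 78 were shared with the main set, 8 to 212 were called under LDL and 643 to 830 in the main set. Without both libraries high in collagen, an alternative chosen after seeing the data as were those of the LDL and main-set libraries, 208 were called with vehicle and 38 under LDL. 16 of 63 named calls held in all 18 settings, among them Itgax, Cd55, F7, F10, Il1rn and Il21r. Depth limits genes under 1 CPM, and 26.9% of 1.5-fold changes were recovered on simulated data.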
